A study of Mus musculus with 6 samples.

Results

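The ER chaperones and disulfide isomerases are the proteins that fold newly made secretory proteins in the endoplasmic reticulum (ER). The set was chosen by the known function of its members, with earlier results of these data already known. It holds 33 of the 23284 genes counted in the livers. All 33 passed the filter on low counts and were among the 12453 genes tested. RNA-seq compared 3 mouse livers expressing wild-type FXR (FXR-WT) with 3 expressing Y67F-FXR, in which the tyrosine that the kinase Src phosphorylates is replaced by phenylalanine. FXR (gene Nr1h4) is the nuclear receptor that senses bile acids, and the comparison asks how hepatic transcription differs when this tyrosine cannot be phosphorylated. Each of the 6 libraries held between 19551113 and 22053320 reads assigned to genes.

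Both groups were male FXR-floxed mice injected at 8 weeks of age with 2 adeno-associated viral (AAV) vectors, one carrying Cre to delete the floxed mouse FXR and the other FXR of wild-type or Y67F form. The TBG promoter, which is active in hepatocytes, drove these vectors. After 4 weeks all mice were fed chow with 0.5% cholic acid, a bile acid that activates FXR, for 6 h before the livers were taken. The Cre vector and the cholic acid chow were thus shared, and no group without cholic acid or with intact mouse FXR was part of the comparison. The vectors were thus aimed at hepatocytes, and FXR in other cell types was not measured separately in these libraries. The labels number the mice but say nothing further of litters or days. Reads assigned to Nr1h4 came to 152, 209 and 198 CPM (read counts scaled to library size) in the FXR-WT livers and 169, 169 and 186 CPM in the Y67F-FXR livers. These ranges overlapped (log2 fold change -0.09, adjusted p = 0.861, edgeR), and per-gene counts can neither show the substitution nor separate reads of the mouse gene from reads of the vector's FXR.

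Proteins destined for blood or membranes enter the ER unfolded. There, BiP and its partners bind exposed stretches of chain, lectin chaperones hold glycoproteins, and disulfide isomerases form and reshuffle disulfide bonds. The hepatocyte carries a heavy secretory load of albumin, apolipoproteins and clotting factors. When unfolded proteins build up, the sensors IRE1, ATF6 and PERK start the unfolded protein response, in which ATF6 and spliced XBP1 raise transcription of many of these folding genes through short promoter sequences.

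The best known of these sequences is the ER stress response element (ERSE), CCAAT, any 9 bases, then CCACG. It was looked for on both strands in RefSeq promoter windows (build GRCm38.p6) from 250 bases before to 50 bases after each annotated start. Of the 33 genes, 29 had a window, Hyou1, Sil1, Erp29 and Manf being the exceptions. An ERSE was present in 8 of the 29, compared with 0.137% of the 27025 genes that have a window (0.119% of all 32851 windows), and the 8 were Hspa5, Hsp90b1, Dnajc3, Calr, Canx, Pdia6, Ero1lb and Creld2. The 215 bases before the start are printed 5′ to 3′ for the 4 of them called lower in Y67F-FXR livers by the test described below. They are also printed for Hsp90b1, which held the element at 2 places. Capitals mark the element, on the minus strand of the gene where it begins with CGTGG.
Hspa5, chr2:34771875-34772089, plus strand: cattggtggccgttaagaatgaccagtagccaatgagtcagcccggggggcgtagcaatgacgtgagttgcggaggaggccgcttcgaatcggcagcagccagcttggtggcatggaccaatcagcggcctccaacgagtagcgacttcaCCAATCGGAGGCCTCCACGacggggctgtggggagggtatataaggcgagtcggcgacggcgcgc
Calr, chr8:84846932-84847146, minus strand: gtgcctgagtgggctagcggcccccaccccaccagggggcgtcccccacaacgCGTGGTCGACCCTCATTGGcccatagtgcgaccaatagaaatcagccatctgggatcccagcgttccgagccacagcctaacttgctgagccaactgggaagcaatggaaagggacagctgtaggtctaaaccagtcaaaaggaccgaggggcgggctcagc
Pdia6, chr12:17266374-17266588, plus strand: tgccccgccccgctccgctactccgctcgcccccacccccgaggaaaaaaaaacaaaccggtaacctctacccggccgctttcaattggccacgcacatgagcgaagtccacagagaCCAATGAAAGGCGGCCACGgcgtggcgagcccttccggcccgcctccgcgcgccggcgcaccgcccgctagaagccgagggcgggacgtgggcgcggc
Creld2, chr15:88819431-88819645, plus strand: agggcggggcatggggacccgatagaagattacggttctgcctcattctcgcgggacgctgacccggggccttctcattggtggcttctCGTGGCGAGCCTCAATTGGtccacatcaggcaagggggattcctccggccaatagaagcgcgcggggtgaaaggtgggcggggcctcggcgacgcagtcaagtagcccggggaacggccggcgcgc
Hsp90b1, chr10:86705445-86705659, minus strand: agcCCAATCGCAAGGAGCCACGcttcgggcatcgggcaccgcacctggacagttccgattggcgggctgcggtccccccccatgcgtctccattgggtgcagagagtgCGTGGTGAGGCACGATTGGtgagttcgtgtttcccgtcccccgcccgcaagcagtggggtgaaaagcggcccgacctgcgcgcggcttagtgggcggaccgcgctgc
The element began 65 bases before the start in Hspa5, 98 before it in Pdia6, 126 in Creld2 and 162 in Calr. In Hsp90b1 the copies began 212 and 107 bases before the start.

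Genes for BiP, its exchange factor GRP170, its co-chaperone ERdj3, calreticulin and 3 isomerases were among those with lower mRNA levels in Y67F-FXR livers, and no member was called higher. In all, 10 of 33 passed an adjusted p of 0.05 with a change of more than 1.5-fold (edgeR's quasi-likelihood test, Benjamini-Hochberg adjustment over all genes), all of them lower. Among all genes tested, 0.426% were called lower and 0.546% higher. The 10 were Sdf2l1, Manf, Creld2, Hyou1, Hspa5, Pdia4, Pdia6, Dnajb11, Pdia3 and Calr. At an unadjusted p under 0.05, 18 members were lower and 0 higher, against 6.67% and 6.75% of all genes. DESeq2 called 12 members lower and 0 higher, against 1.55% and 1.6% of the genes to which it gave an adjusted p. All 3 Y67F-FXR livers lay below all 3 FXR-WT livers for 21 members, against 10.5% of all genes, and above them for 0 members, against 10.2%. The median log2 fold change was -0.51 over the 33 members and 0.01 over all genes tested, where 48.0% were fitted lower. In these bulk libraries, fewer cells of a type and less RNA per cell cannot be told apart.

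**Figure D1:**
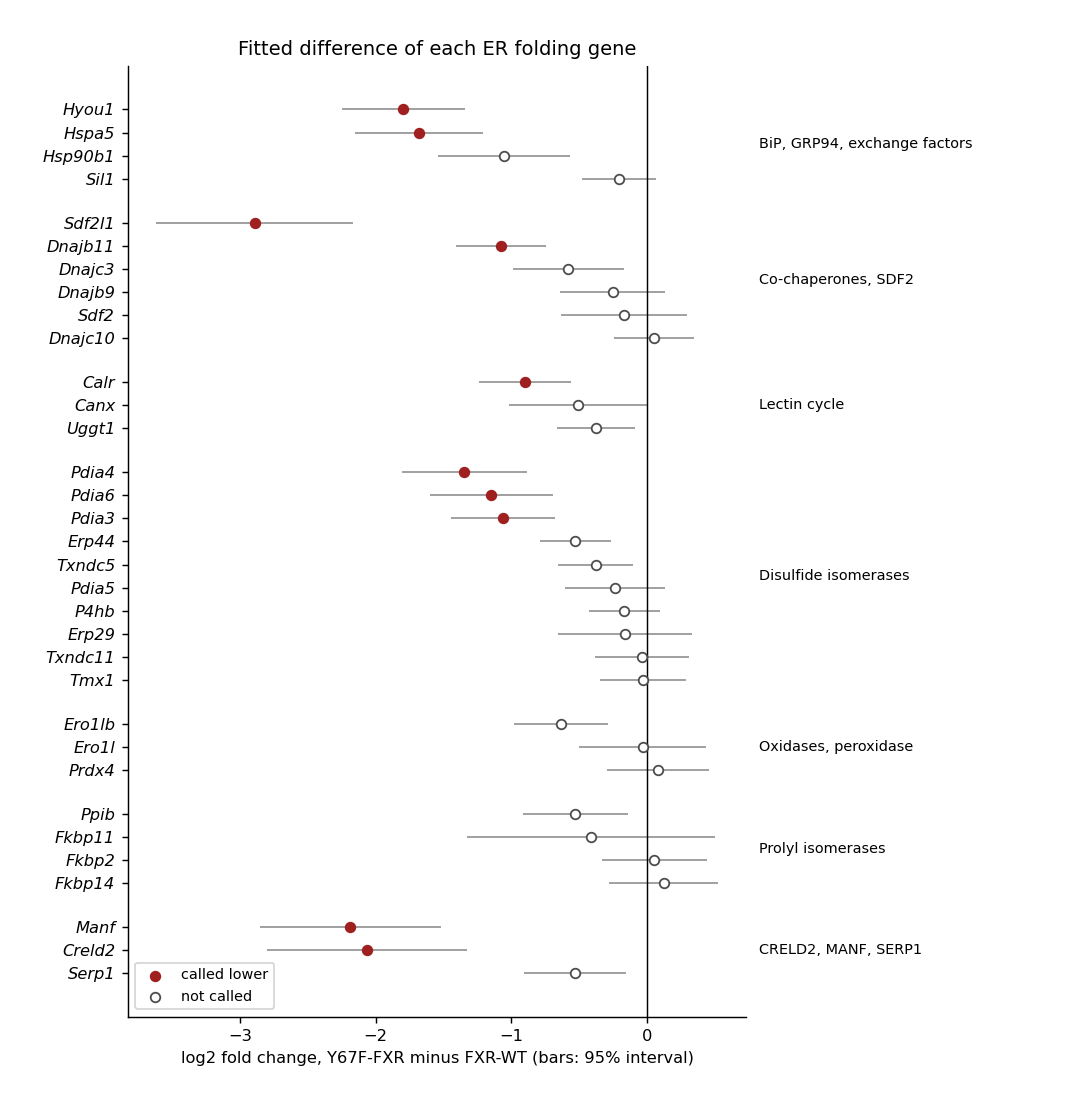
Log2 fold change of each of the 33 ER folding genes, Y67F-FXR minus FXR-WT, with 95% intervals from the edgeR fit, arranged by role. Filled points are the 10 genes called lower, from -2.89 for Sdf2l1 to -0.90 for Calr, and the 4 points right of 0 are Fkbp14, Prdx4, Fkbp2 and Dnajc10.

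How many members passed the adjusted test depended on which livers were included. Leaving out FXR-WT replicate 3 or Y67F-FXR replicate 3 left 0 members called, with 18 and 17 members lower at an unadjusted p under 0.05 and adjusted p for the 10 genes of 0.0614 to 0.136 and 0.0529 to 0.205. Leaving out FXR-WT replicates 1 and 2 or Y67F-FXR replicates 1 and 2 in turn left 6, 10, 2 and 5 members called (edgeR in each case). Over all genes, each of these fits also called fewer lower than the 53 of the main fit. All 10 genes were fitted lower in every one of these 6 fits. That direction was all but fixed in advance, since the groups of each of the 10 did not overlap in the full set of livers. The libraries also differed by gene length, since the shortest quintile of genes had log2 deviations of 0.20 and 0.22 in FXR-WT replicate 1 and Y67F-FXR replicate 2, and of -0.18 and -0.20 in FXR-WT replicate 3 and Y67F-FXR replicate 1. With this trend fitted as an offset for gene length, 12 members were called lower, the same 10 plus Hsp90b1 and Ero1lb. That fit called 124 of all genes lower, against 53 in the main fit. Leaving out single livers under that offset, a combination tried after the data were seen, left 5 to 13 members called, and Hspa5, Hyou1, Sdf2l1, Manf and Dnajb11 were called in each of the 6 fits. Without the offset these 5 genes lost the call in 2 or 3 of the 6 fits. Calls over all genes changed as well when livers were left out, and their counts are given in the closing section.

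Within the chaperone machinery around BiP, the abundant HSP70 and its large partner were both lower. Hspa5 (mm9, chromosome 2, 34627610 to 34632049), which encodes BiP, the central ER HSP70, was at 1798, 1057 and 1405 CPM in the FXR-WT livers and at 437, 402 and 491 CPM in the Y67F-FXR livers. The lowest FXR-WT liver was thus 2.15 times the highest Y67F-FXR liver. BiP mRNA fell by 1.68 on the log2 scale (SE 0.204, adjusted p = 0.0175, edgeR), from a mean of 1420 ± 370 to 443 ± 44.7 CPM (SD, n = 3 each). Hyou1 (mm9, chromosome 9, 44187573 to 44200452), encoding GRP170, a large HSP70 relative that exchanges the nucleotide of BiP, was at 284, 181 and 242 CPM in FXR-WT and 70.3, 56.4 and 76.5 CPM in Y67F-FXR. Its groups were as clearly apart, with a log2 fold change of -1.80 (SE 0.196, adjusted p = 0.0139, edgeR). Hsp90b1, which encodes GRP94, the ER HSP90, had 1940, 1112 and 1823 CPM in FXR-WT and 824, 782 and 742 CPM in Y67F-FXR. No liver overlapped, but FXR-WT replicate 2 lay nearer to the Y67F-FXR livers than to its own group, and the log2 fold change of -1.05 (SE 0.210) did not pass edgeR's test (adjusted p = 0.0722). Sil1, the second nucleotide exchange factor of BiP, showed a log2 fold change of -0.21 (adjusted p = 0.523, edgeR).

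The J-domain proteins, which deliver clients to BiP and trigger its ATPase, did not move as a block. Dnajb11 (mm9, chromosome 16, 22857918 to 22879707), encoding ERdj3, was at 176, 142 and 178 CPM in FXR-WT and 82.2, 68.7 and 84.0 CPM in Y67F-FXR. It fell by 1.08 on the log2 scale (SE 0.143, adjusted p = 0.0210, edgeR) and had the smallest standard error of the 10 called genes. Dnajb11 was also the single member whose window held the related ERSE-II element (ATTGG, any 1 base, CCACG), 8 to 18 bases after the start, present in 0.0444% of genes with a window. Dnajc3, encoding p58IPK, showed a log2 fold change of -0.58 with non-overlapping groups (adjusted p = 0.198). The values for Dnajb9, encoding ERdj4, and Dnajc10, encoding the disulfide reductase ERdj5, were -0.26 (adjusted p = 0.596) and 0.05 (adjusted p = 0.925, edgeR).

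The largest difference of the set was that of Sdf2l1, and its paralog Sdf2 gave a contrast within one family. SDF2L1 and SDF2 are related ER proteins that associate with ERdj3. Sdf2l1 (mm9, chromosome 16, 17130231 to 17132476) was at 52.2, 22.5 and 40.4 CPM in FXR-WT and 5.83, 4.15 and 5.49 CPM in Y67F-FXR. The lowest FXR-WT liver was 3.86 times the highest Y67F-FXR liver, and the fitted change was -2.89 on the log2 scale (SE 0.315, adjusted p = 0.0139, edgeR), a 7.42-fold lower level. Sdf2, in contrast, was at 39.3, 30.2 and 26.1 CPM in FXR-WT and 22.6, 34.2 and 28.1 CPM in Y67F-FXR, overlapping values with a log2 fold change of -0.17 (95% interval -0.64 to 0.29, adjusted p = 0.795, edgeR). Per kilobase of exon, the ratio of Sdf2 to Sdf2l1 was 0.658, 1.17 and 0.564 in the FXR-WT livers and 3.39, 7.20 and 4.48 in the Y67F-FXR livers. The ratio was higher in every Y67F-FXR liver, by 2.66 on the log2 scale (two-sided exact permutation test, p = 0.10, adjusted over the 2 ratios tested p = 0.10), and with 3 livers against 3 no smaller p is possible. Because Sdf2l1 differed and Sdf2 hardly did in these same livers, the ratio restates their contrast and is no separate support for it.

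**Figure D2:**
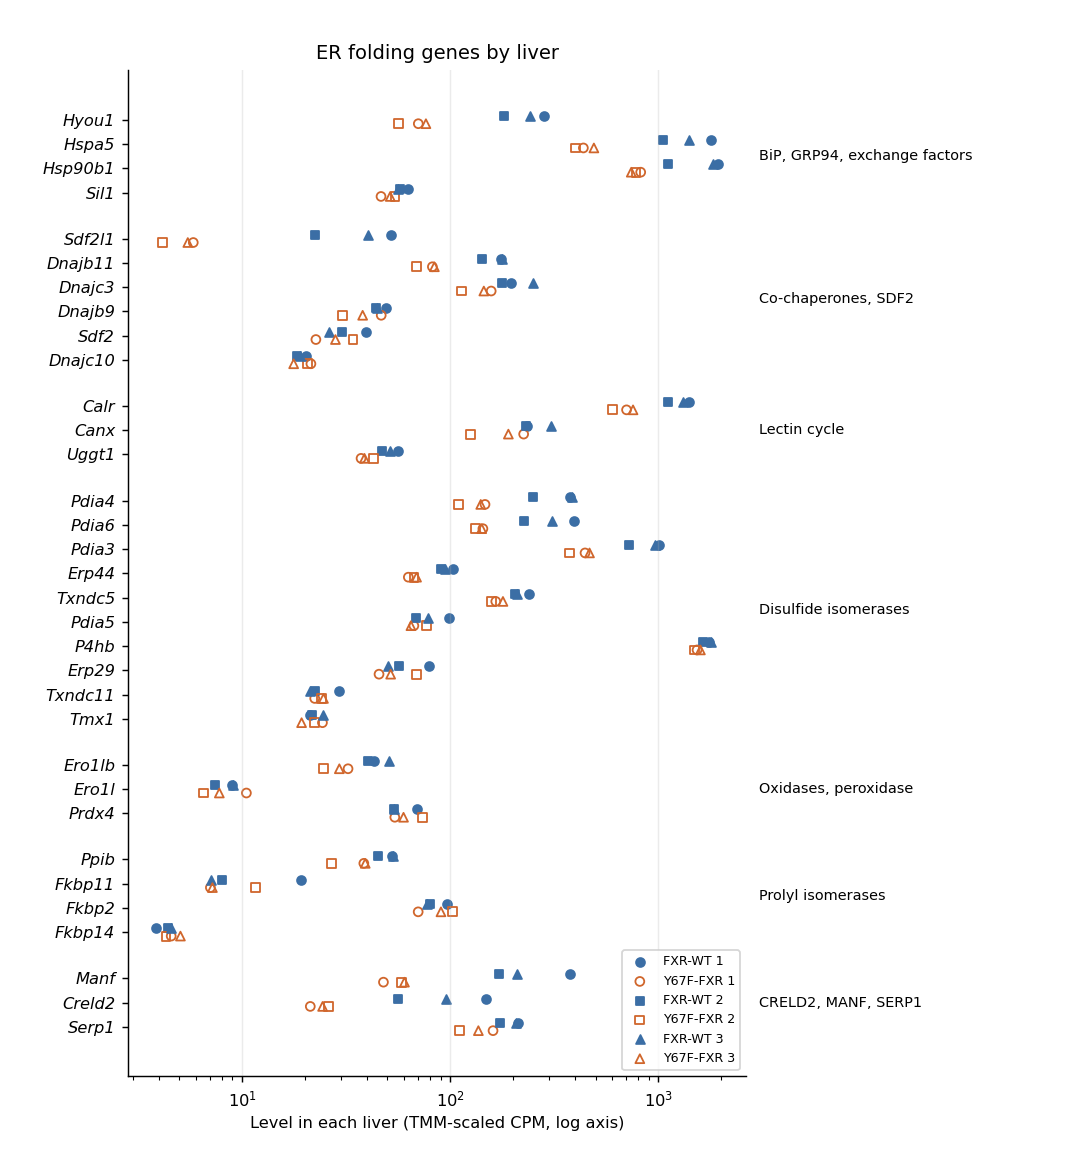
Level of each ER folding gene in each liver, in TMM-scaled CPM on a log axis, arranged by role, with filled blue symbols for FXR-WT, open orange symbols for Y67F-FXR and shapes for replicates 1 to 3. Hspa5 spans 1057 to 1798 CPM in FXR-WT and 402 to 491 CPM in Y67F-FXR, while the symbols of P4hb, Sdf2 and Prdx4 lie close together or mix.

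In the lectin cycle, in which glycoproteins are bound and released until folded, the soluble lectin was lower and the membrane-bound one was not called. Calr (mm9, chromosome 8, 87365987 to 87370830), encoding calreticulin, was at 1411, 1114 and 1320 CPM in FXR-WT and 704, 601 and 757 CPM in Y67F-FXR. The groups did not overlap and calreticulin mRNA fell by 0.90 on the log2 scale (SE 0.147, adjusted p = 0.0381, edgeR). This call was lost in each of the 6 fits without 1 liver (adjusted p 0.0724 to 0.137, edgeR) and in 3 of the 6 with gene length offsets (0.0321 to 0.0731). Canx, encoding the membrane lectin calnexin, showed a log2 fold change of -0.51 (95% interval -1.02 to 0.01, adjusted p = 0.380), and Uggt1, the glucosyltransferase that returns misfolded glycoproteins to the lectins, had -0.38 (adjusted p = 0.234, edgeR). For both, every Y67F-FXR liver was below every FXR-WT liver.

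Among the 10 members of the disulfide isomerase family, 3 were called lower and the one with the highest level per kilobase was not. Pdia3 (mm9, chromosome 2, 121239638 to 121264422), encoding ERp57, the isomerase that works with calreticulin and calnexin, was at 1012, 721 and 965 CPM in FXR-WT and 445, 376 and 468 CPM in Y67F-FXR. Pdia4 (mm9, chromosome 6, 47746140 to 47763511), encoding ERp72, was at 376, 250 and 386 CPM in FXR-WT and 147, 110 and 140 CPM in Y67F-FXR. Pdia6 (mm9, chromosome 12, 17273401 to 17291576), encoding P5, which binds BiP, was at 393, 226 and 308 CPM in FXR-WT and 144, 132 and 142 CPM in Y67F-FXR. None of these 3 genes had overlapping groups, and in each the lowest FXR-WT liver was replicate 2. Their log2 fold changes were -1.07 (SE 0.166, adjusted p = 0.0339) for Pdia3, -1.35 (SE 0.200, adjusted p = 0.0304) for Pdia4 and -1.15 (SE 0.196, adjusted p = 0.0440, edgeR) for Pdia6. In the 6 fits without 1 liver each of these calls was lost in 5, with adjusted p (edgeR) up to 0.137 for Pdia3, 0.137 for Pdia4 and 0.205 for Pdia6. With gene length offsets the calls were lost in 2, 1 and 4 of 6 fits, respectively. The exons of Pdia6 share 50 bases with Atp6v1c2 on the other strand and those of Pdia4 share 14 with Mir704, and reads were counted without regard to strand.

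P4hb, which encodes PDI itself and also a subunit of prolyl 4-hydroxylase and of the microsomal triglyceride transfer complex, was at 1762, 1648 and 1785 CPM in FXR-WT and 1537, 1492 and 1595 CPM in Y67F-FXR. Its groups did not overlap, yet the difference was small, -0.17 on the log2 scale with a 95% interval of -0.43 to 0.09 (adjusted p = 0.611, edgeR), an interval that holds no value as low as the estimate for any called member. The ratio of P4hb to Hspa5 per kilobase was 1.01, 1.61 and 1.31 in FXR-WT livers and 3.63, 3.83 and 3.35 in Y67F-FXR livers. The groups were separate in this ratio, 1.48 higher on the log2 scale in Y67F-FXR (two-sided exact permutation test, p = 0.10, the smallest possible, and 0.10 when adjusted over the 2 ratios). Since Hspa5 was already separate between the groups and P4hb differed little, this ratio too restates a known contrast. Of the remaining isomerases, Erp44, which retains client proteins and ERO1 by thiol bonds, came closest to the threshold, with a log2 fold change of -0.53 and an adjusted p of 0.0895 (edgeR). Txndc5 showed a log2 fold change of -0.38 (adjusted p = 0.215) and non-overlapping groups. Pdia5, Erp29, Txndc11 and Tmx1 ranged from -0.23 to -0.03 on the log2 scale with overlapping groups (adjusted p from 0.614 to 0.960, edgeR).

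**Figure D3:**
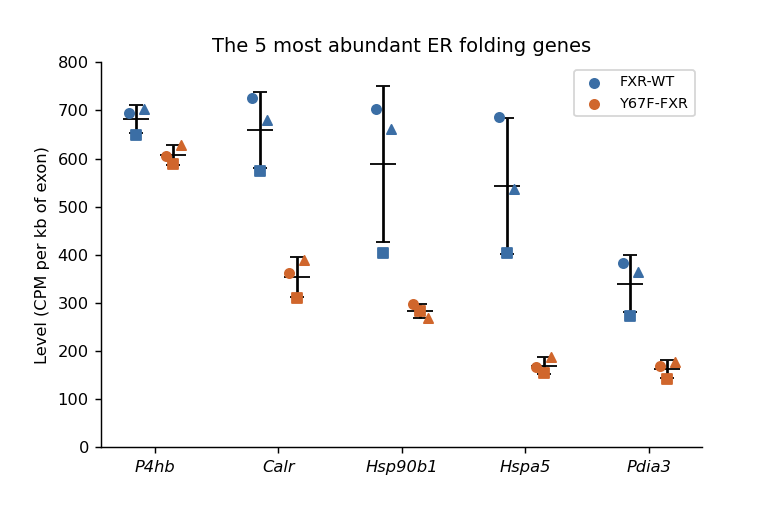
Levels of the 5 most abundant ER folding genes in CPM per kilobase of exon, on a linear axis from 0, with 1 point per liver (circle, square and triangle for replicates 1, 2 and 3) and bars for the mean ± SD (n = 3 per group). P4hb, Calr, Hsp90b1 and Hspa5 overlap in FXR-WT, whereas in Y67F-FXR P4hb at 588 to 628 lies above the rest and Hspa5 at 154 to 188 is level with Pdia3.

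The order of the mean levels of these 5 genes was the same in both groups, but the spacing was not. On the scale of CPM per kilobase, FXR-WT levels were 649 to 703 for P4hb, 573 to 726 for Calr, 403 to 703 for Hsp90b1 and 404 to 687 for Hspa5, and these 4 ranges overlapped one another. In the Y67F-FXR livers P4hb was at 588 to 628, Calr at 309 to 389, Hsp90b1 at 269 to 299 and Hspa5 at 154 to 188, with no overlap between neighbours in that order. Pdia3, at 142 to 177 in Y67F-FXR, overlapped Hspa5. Over the 33 members, log2 level per kilobase in FXR-WT and log2 fold change had a Spearman rho of -0.49 and a Pearson r of -0.41, a description across genes measured in the same 6 libraries, in which the FXR-WT level enters both quantities.

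The enzymes that supply oxidizing equivalents to the isomerases were not called. Ero1l, the ER oxidase ERO1α, was at 9.0, 7.42 and 9.03 CPM in FXR-WT and 10.5, 6.55 and 7.78 CPM in Y67F-FXR, with mixed groups and a log2 fold change of -0.03 (adjusted p = 0.973, edgeR). Its paralog Ero1lb was at 42.9, 40.3 and 50.9 CPM in FXR-WT and 32.3, 24.7 and 29.4 CPM in Y67F-FXR. These groups did not overlap, with a log2 fold change of -0.63 (SE 0.15, adjusted p = 0.111, edgeR), and Ero1lb held an ERSE 201 bases before its start while the window of Ero1l held none. Prdx4, a peroxiredoxin that uses hydrogen peroxide to oxidize isomerases, was at 69.2, 54.0 and 54.0 CPM in FXR-WT and 54.2, 73.5 and 59.7 CPM in Y67F-FXR. Its values overlapped and its log2 fold change was 0.08 (95% interval -0.29 to 0.46, adjusted p = 0.897, edgeR).

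The 4 prolyl isomerases, which turn the peptide bond before proline, were not called either. Fkbp2 was at 96.2, 80.2 and 77.4 CPM in FXR-WT and 70.2, 103 and 90.4 CPM in Y67F-FXR. Fkbp14 was at 3.86, 4.41 and 4.54 CPM in FXR-WT and 4.57, 4.31 and 5.06 CPM in Y67F-FXR. Both sets of values overlapped, and the log2 fold changes were 0.05 (adjusted p = 0.943) and 0.12 (adjusted p = 0.844, edgeR), the latter the highest of the 33. Ppib, encoding cyclophilin B, showed a log2 fold change of -0.53 with non-overlapping groups (adjusted p = 0.217), although its exons share 520 bases with Snx22. Fkbp11 had -0.41 with overlapping groups (adjusted p = 0.734, edgeR).

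The 3 remaining members are factors linked to ER stress, and 2 of them, Manf and Creld2, were called lower. Manf (mm9, chromosome 9, 106789746 to 106794269), a secreted factor retained in the ER by BiP, was at 377, 173 and 210 CPM in FXR-WT and 47.8, 58.5 and 60.3 CPM in Y67F-FXR. Its lowest FXR-WT liver was 2.86 times the highest Y67F-FXR liver, and the log2 fold change was -2.19 (SE 0.289, adjusted p = 0.0210, edgeR). Creld2 (mm9, chromosome 15, 88650076 to 88657111), an ER protein with disulfide isomerase activity, was at 149, 56.5 and 95.5 CPM in FXR-WT and 21.3, 26.1 and 24.4 CPM in Y67F-FXR. The groups were apart, but the FXR-WT livers themselves spread widely, and the log2 fold change was -2.07 (SE 0.319, adjusted p = 0.0336, edgeR). The call for Creld2 was lost in 4 of the 6 fits without 1 liver (adjusted p up to 0.155, edgeR) and in 1 of the 6 with gene length offsets, and that for Manf in 3 and 0. Serp1, a small protein of the translocon, showed a log2 fold change of -0.53 (adjusted p = 0.197, edgeR) with non-overlapping groups, and shares 64 exon bases with Eif2a.

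The 10 called genes also varied together among the FXR-WT livers. FXR-WT replicate 2 was the lowest of its group for 10 of these 10 genes and for 25 of the 33 members, against 22.5% of all genes. FXR-WT replicate 1 was the highest for 8 of the 10, against 40.8% of all genes. The coefficient of variation of every called gene was larger in FXR-WT than in Y67F-FXR, with medians of 24.3% and 11.3%, while over all genes the medians were 14.8% and 16%. Even so, FXR-WT replicate 2 stayed above each Y67F-FXR liver for all 10. Summed over the 33 members, the levels were 11462, 8185 and 10449 CPM in FXR-WT and 5789, 5309 and 5879 CPM in Y67F-FXR. The set thus took 0.836% to 1.15% of all assigned reads in FXR-WT livers and 0.498% to 0.590% in Y67F-FXR livers. The 10 called genes made up 48.2% to 52.6% of the summed CPM in the former and 34.6% to 38.2% in the latter. Their smaller share in Y67F-FXR follows from their having been called lower in these same livers.

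**Figure D4:**
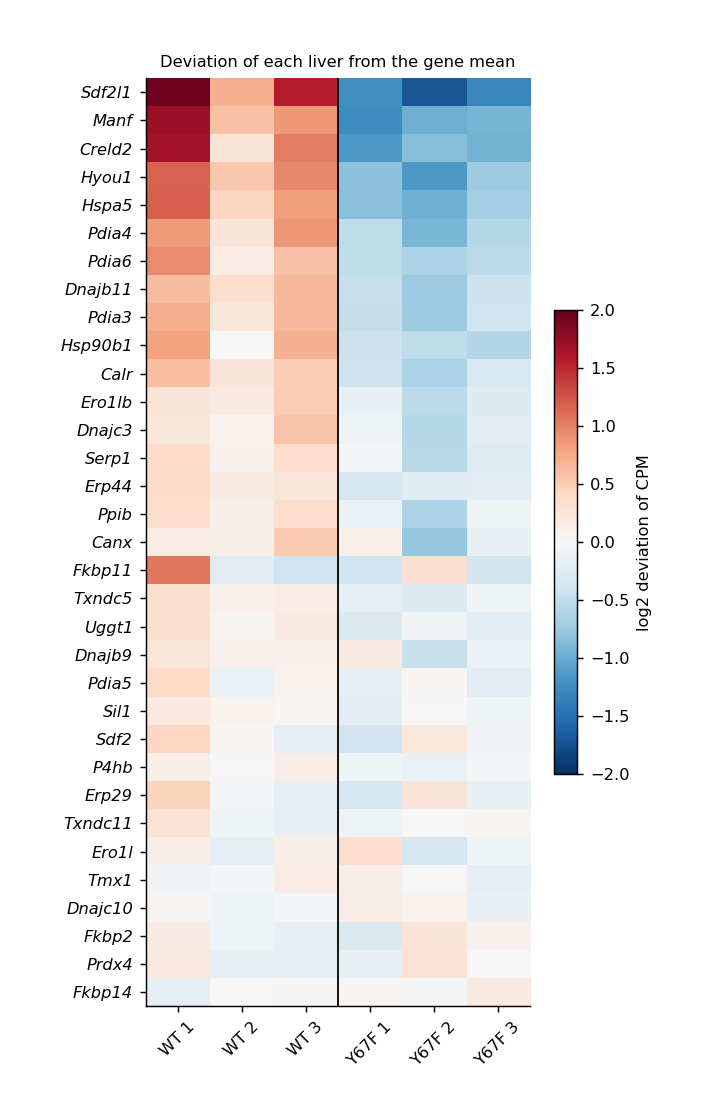
Log2 deviation of each liver from the mean of each ER folding gene, with genes ordered by fold change and livers in columns (red above, blue below the mean, colour scale from -2 to 2). The upper rows are red in all 3 FXR-WT livers, palest in replicate 2, and blue in all 3 Y67F-FXR livers, and the lowest rows show no split by group.

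The ERSE was found in both called and uncalled members, at a larger share among the called. It was present in 4 of the 8 called members with a window and in 4 of the 21 uncalled ones. Those uncalled members, Hsp90b1, Dnajc3, Canx and Ero1lb, were also fitted lower. The median log2 fold change was -0.98 for the 8 members with the element and -0.26 for the 21 without. The called members without an ERSE in their window were Sdf2l1, Dnajb11, Pdia3 and Pdia4. The shorter XBP1 sequence TGACGTGG was found in Txndc5 and Txndc11, neither of them called, and in 0.714% of genes with a window. CCACG, which is also part of the ERSE and of ERSE-II, was present in the windows of 24 of the 29 members and of 35.5% of all genes. Outside the set, 11 tested genes held an ERSE, of which 8 were fitted lower, 0 passed the adjusted test, 5 were lower at an unadjusted p under 0.05 (edgeR), and the median log2 fold change was -0.54. One of them, Alg12, faces Creld2 on the other strand and shares the very element printed for Creld2. Its log2 fold change was -0.81 (adjusted p = 0.101, edgeR). A match of letters is a description and does not show that a factor binds there, and no binding was measured in these libraries.

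**Figure D5:**
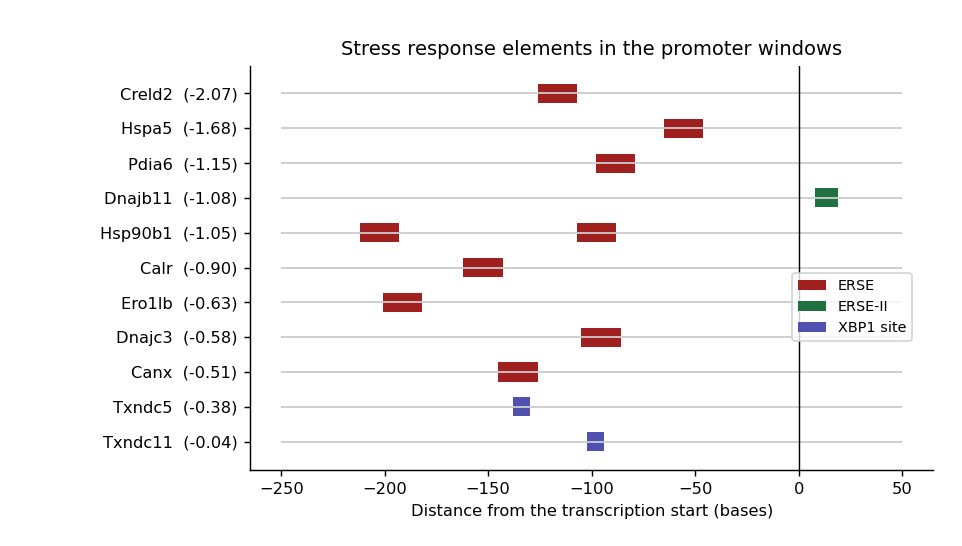
Position of the ERSE, ERSE-II and the XBP1 sequence in the promoter windows of the 11 members that hold one, in bases from the transcription start, with the log2 fold change (Y67F-FXR minus FXR-WT) beside each name. The ERSE copies begin between 212 and 65 bases before the start and the ERSE-II of Dnajb11 lies just after it.

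Genes that sense and relay ER stress were read beside the folding genes, and no difference between the lists was tested. Of 14 genes of the unfolded protein response outside the folding set, 1 was called lower and 0 higher, and 4 were lower and 1 higher at an unadjusted p under 0.05, where the shares of all genes given above were 6.67% and 6.75%. Their median log2 fold change was -0.36. The called gene was Xbp1, the factor that IRE1 activates by splicing, at 399, 290 and 321 CPM in FXR-WT and 165, 169 and 194 CPM in Y67F-FXR. Its groups were separate and its log2 fold change was -0.94 (SE 0.152, adjusted p = 0.0379, edgeR), although the call was lost in each of the 6 fits without 1 liver (adjusted p 0.0621 to 0.137) and in 2 of the 6 with gene length offsets (0.0195 to 0.0531). Counts per gene do not show how much Xbp1 mRNA was spliced. For the sensors, the log2 fold changes were -0.12 for Ern1 (IRE1, adjusted p = 0.942), -0.59 for Atf6 (adjusted p = 0.122) and -0.27 for Eif2ak3 (PERK, adjusted p = 0.563, edgeR). Atf6 was called lower with gene length offsets (adjusted p = 0.0201) and by DESeq2 (adjusted p = 0.0230). The PERK-arm factors Atf4 and Ddit3 had -0.46 (adjusted p = 0.396) and -0.71 (adjusted p = 0.503, edgeR).

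Among 15 genes of ER-associated degradation, which removes misfolded proteins, edgeR called 0, with 5 lower and 0 higher at an unadjusted p under 0.05 and a median log2 fold change of -0.26. Herpud1, a component of the degradation complex, had -0.26 (adjusted p = 0.457). The largest differences in this list, named after their values were seen, were those of Derl3, an ER membrane protein of the same pathway, at -2.57 (adjusted p = 0.0872), and Syvn1, the ubiquitin ligase HRD1, at -0.94 (adjusted p = 0.0844, edgeR). Both had non-overlapping groups and hold an ERSE in their windows. Of 13 chaperone genes of the cytosol and mitochondria tested, 1 was called lower, Hsph1, which encodes the HSP110 exchange factor of the cytosol, and 0 higher. Hsph1 was at 95.1, 74.0 and 119 CPM in FXR-WT and 37.0, 30.9 and 46.2 CPM in Y67F-FXR. Its groups did not overlap (log2 fold change -1.33, SE 0.213, adjusted p = 0.0357, edgeR), and this call was lost in each of the 6 fits without 1 liver (adjusted p 0.0507 to 0.112) but in 0 of the 6 with gene length offsets (0.0140 to 0.0490). At an unadjusted p under 0.05, 6 of these 13 genes were lower and 3 higher. Of 18 hepatocyte genes for secreted proteins, the cargo of the folding machinery, edgeR called 0, with 3 lower and 0 higher at an unadjusted p under 0.05 and a median log2 fold change of -0.06.

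Markers of liver cell types were compared beside these results. Summed levels differed without overlap for 3 lists. The 8 stellate cell markers summed to 185 to 202 CPM in FXR-WT and 133 to 177 CPM in Y67F-FXR, with 8 of 8 fitted lower, 0 called and 3 lower at an unadjusted p under 0.05 (edgeR). The 5 neutrophil markers summed to 3.97 to 7.22 CPM and 2.00 to 2.89 CPM, with Mpo at 0 in every library and 3 of the 3 that were tested lower at an unadjusted p under 0.05. The 8 plasma and B cell markers summed to 203 to 251 CPM in FXR-WT and 264 to 266 CPM in Y67F-FXR, nearly all of it Sdc1 (243, 203 and 197 CPM against 261, 255 and 258 CPM). Of the 5 plasma and B cell markers tested, 2 were fitted lower and 3 higher, with 0 at an unadjusted p under 0.05 (edgeR). The part of these shifts in the levels of the folding genes was not tested. Sums for 8 hepatocyte, 8 Kupffer cell, 6 endothelial, 6 cholangiocyte and 5 erythrocyte markers overlapped between the groups, the hepatocyte sum being 96852 to 110055 CPM in FXR-WT and 95593 to 115985 CPM in Y67F-FXR, and the globin genes Hbb-b1, Hbb-b2, Hba-a1 and Hba-a2 were at 0 in every library. By edgeR's test 0 markers of any list were called.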

How the data were processed

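Liver RNA was sequenced from 3 FXR-WT and 3 Y67F-FXR mice, grouped by their titles. The submitters' processing notes name bcl2fastq 2.17.1.14, Trimmomatic 0.36, FastQC 0.11.5, STAR 2.5.3a and edgeR. The authors deposited whole-number read counts per gene, made per the file headers with featureCounts 1.4.6-p4 on UCSC mm9 genes without strand. A table of the authors' own comparison (fold changes and p-values) was not used.

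Here, genes kept by filterByExpr were fitted with edgeR 4.0.16 (TMM scaling, quasi-likelihood test, R 4.3.3), and calls required both a Benjamini-Hochberg adjusted p below 0.05 and more than a 1.5-fold change. CPM are TMM-scaled, and the method was tested on simulated data. Alternatives were other scalings and filters, DESeq2 1.42.0, a replicate block, loess offsets for gene length and leaving out each liver. P-values measure the spread between these livers only. Promoter windows came from RefSeq (GRCm38.p6) and were not combined with the mm9 coordinates (Ero1l and Ero1lb matched as Ero1a and Ero1b). Intervals are 95%.

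The members and all gene lists were chosen with earlier results of these data known. Values in every liver are given for each called member, the most abundant of each of 7 classes (per kilobase), the 3 with the highest fold change, and the paralogs Sdf2, Ero1l and Ero1lb; context genes are named if called or if central to the stress response. Alg12, Derl3 and Syvn1 were named after their values were seen.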

Additional observations from a re-analysis of the deposited data

How the results depend on the processing

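The 10 lower members stayed at 10 to 12 under other scalings, other filters on low counts, gene length offsets, DESeq2, no fold minimum, and unadjusted p-values with the 1.5-fold minimum kept. With a replicate block 2 members were called (Hyou1 and Sdf2l1) and all genes gave 6 lower and 2 higher. Same-numbered livers did not deviate together (r = -0.52, -0.08 and 0.12), but these correlations were not corrected for gene length. Livers with like length trends correlated, with r = 0.58 for FXR-WT replicate 3 and Y67F-FXR replicate 1. Whether the numbers mark a pairing was therefore not settled. The block with gene length offsets again called 10 members. Leaving out single livers gave 0 to 10 members, 7 to 33 genes lower and 2 to 35 higher overall. Leaving out single livers under gene length offsets, tried after the data were seen, gave 5 to 13 members, 43 to 100 genes lower (100 without FXR-WT replicate 1 and 80 without replicate 2) and 44 to 100 higher, the lowest without FXR-WT replicate 3. Against 53 lower and 68 higher over all genes, no filter gave 81 lower, length offsets 124 and 121, DESeq2 206 and 213, and unadjusted p-values with that minimum 401 and 382. Library totals alone gave 68 lower and 52 higher, so the share higher was 43.3% rather than 56.2%. None of the 10 called members turned its sign in any setting run, which their non-overlapping groups had largely fixed in advance. Under library totals the log2 fold change was -0.020 for Dnajc10 and -0.022 for Fkbp2. Leaving out single livers, it ran from -0.0070 to 0.13 for Dnajc10, -0.34 to 0.0057 for Sdf2, -0.13 to 0.11 for Txndc11, -0.11 to 0.060 for Tmx1, -0.36 to 0.046 for Erp29, -0.24 to 0.10 for Ero1l, -0.062 to 0.21 for Prdx4, -0.086 to 0.19 for Fkbp2, -0.69 to 0.18 for Fkbp11 and -0.60 to 0.13 for Ern1. With 3 livers a group, an exact test of a single value cannot go below p = 0.10.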
